A study of Mus musculus with 6 samples.

Results

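The 9 genes Lck, Fyn, Zap70, Syk, Lat, Lcp2, Txk, Prkcq and Themis encode the kinases and adaptors that act first when a T-cell receptor or pre-T-cell receptor is engaged. They were taken by name, through their Entrez identifiers, from the 26332 genes of the count table. All 9 were present. RNA had been sequenced from double negative 3 (DN3) thymocytes of mice on the C57BL/6 background. The cells had been sorted as CD44- and CD25+ after exclusion of cells with TCRbeta, CD3, CD8, NK1.1 or CD1d tetramer staining. There were 2 libraries of Tcf7 knockout cells (KO 1, male, and KO 2, female) and 4 of wild-type cells (WT 1, 2 and 3, female, and WT 4, male). By their sex, KO 1 and KO 2 came from different mice, and WT 4 from another mouse than the other WT libraries. The labels do not say whether WT 1, 2 and 3 came from separate mice, and p-values measure the spread between these libraries. Tcf7 encodes TCF-1, a transcription factor of the T-cell lineage, and the comparison asks what its loss does to DN3 RNA. The labels also leave out the ages of the mice, which part of Tcf7 was removed and in which cells.

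DN3 thymocytes have rearranged or are rearranging the T-cell receptor β locus, and those that succeed signal through the pre-T-cell receptor. In that signal the Src family kinases LCK and FYN phosphorylate tyrosine motifs of the CD3 chains. ZAP-70 or its relative SYK docks there and phosphorylates the scaffold LAT and the adaptor SLP-76, the product of Lcp2. The complex on these adaptors brings in Tec family kinases and phospholipase C, which in turn lead to protein kinase C theta (Prkcq) and to Ras. In mouse thymocytes SYK is known to act mainly in early stages and ZAP-70 from the pre-T-cell receptor onward. THEMIS is a thymocyte protein that tunes receptor signals during selection.

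Library totals were 13673860 to 41666797 counts, and KO 2 was the shallowest. Levels are given as CPM, counts scaled to a common library size with TMM factors. The targeted gene Tcf7 stood at 1133 and 1022 CPM in KO 1 and KO 2 and at 2094 to 2326 CPM in WT, so transcripts of the gene were still counted in both KO libraries. The DN3 identity of the cells was checked on 12 marker genes. Their summed level was 9860 and 10500 CPM in KO 1 and KO 2 and 13400 to 14300 CPM in WT, and none of the 12 was at 0 in any library. Of the 12, 6 were called lower in KO, 1 (Dtx1) was called higher and 5 did not pass. Among the 6 was Il2ra, the gene of CD25, at 1131 and 707.8 CPM in KO 1 and KO 2 against 1751 to 2119 CPM in WT. Marker lists of other cells were summed in the same way. The 16 B-lineage markers reached 557 CPM in KO 1, 1230 CPM in KO 2 and 242 to 272 CPM in WT, most of it Ighm (522 and 877 CPM in KO, 185 to 220 CPM in WT), and 8 of the 11 tested rose. The 10 markers of CD4 and CD8 double-positive thymocytes reached 683 CPM in KO 1, 2230 CPM in KO 2 and 609 to 649 CPM in WT, with members in both directions. Of these 10, 4 rose, Cd8a, Cd8b1 and Trac among them, and 4 fell, namely Cd1d1, Arpp21, Slc7a11 and Tdrd5. The γδ T-cell list gave 2960 and 2210 CPM in KO 1 and KO 2 and 1950 to 2070 CPM in WT. Its members also went both ways, since Cd163l1, Blk and Sox13 rose, while Trdc, Trgc1, Trgc2 and Trgc4 lay below every WT library in both KO libraries, with Trgc1 alone called lower. The NK and innate lymphoid list, which includes Gata3, gave 308 and 241 CPM in KO and 190 to 202 CPM in WT. The sum of the myeloid list was lower in KO, at 5.22 and 10.1 CPM against 18.5 to 20.6 CPM in WT, with Cd14 and Elane at 0 throughout. Most of the WT sum was Lyz2, which fell (0.1535 and 1.194 CPM in KO, 16.75 to 18.45 CPM in WT). Itgam of the same list rose (4.81 and 6.866 CPM in KO, 0.492 to 0.752 CPM in WT). Of the 3 myeloid markers tested, 1 was called higher and 1 lower. The dendritic list gave 222 and 348 CPM in KO and 267 to 291 CPM in WT, with Siglech at 0 throughout. The stromal and epithelial list gave 190 and 188 CPM in KO and 257 to 275 CPM in WT, with Krt5, Foxn1, Col3a1 and Pdgfra at 0 throughout. The part of other cells in the results on the 9 genes was not tested. Mitochondrial genes held 0.893% of counts in KO 1, 1.78% in KO 2 and 2.61 to 2.92% in WT.

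All 9 genes had enough counts for a test, and 6 of them differed between genotypes, 4 higher and 2 lower in KO. Among all 13294 genes tested 30.7% were called, 14.1% higher and 16.5% lower. Txk, Zap70, Prkcq and Fyn rose, Syk and Lck fell, and Lcp2, Lat and Themis did not pass. The median log2 fold change of the 9 was 0.31, against -0.04 over all genes tested. For 7 of the 9 genes both KO values lay on the same side of every WT value, 5 above and 2 below. The same was so for 51.5% of all genes tested, 22.9% above and 28.6% below. Leaving out WT 1, WT 2 or WT 3 gave 5 of the 9 called, beside 1665, 1714 and 1743 of all genes. Without WT 4, a fit that leaves the difference to KO 2 once sex is fitted, it was 7, beside 8279 of all genes. The number called among the 9 thus moved with the number called among all genes. With weights per genotype, limma-voom called 5 of the 9, against 11.3% of all genes tested. In these bulk samples, fewer cells of a type and less RNA per cell cannot be told apart.

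**Figure D1:**
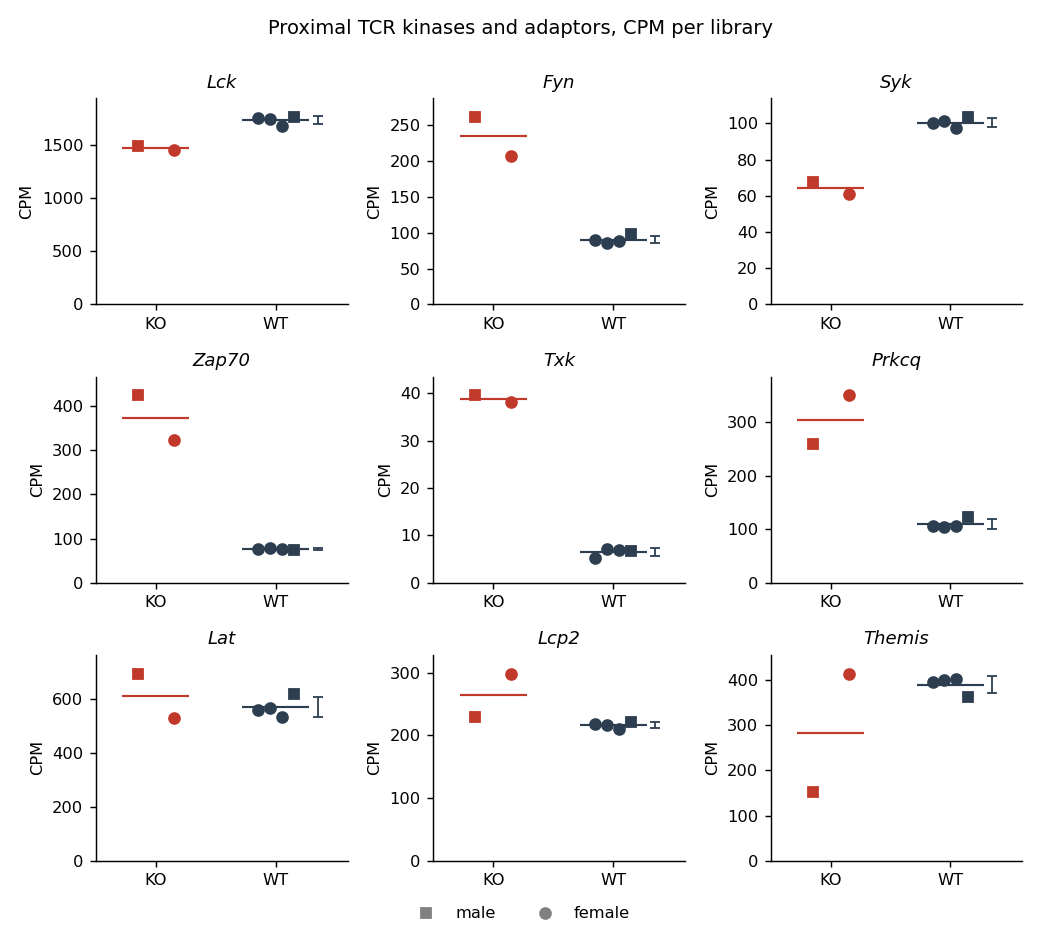
CPM of each of the 9 genes in each library (y axis from 0), KO left of WT, with squares for male and circles for female libraries. Lines are group means and the bar beside WT is the SD (n = 4). Txk, Zap70, Prkcq and Fyn lie far above the WT points in both KO libraries, Syk and Lck below them, and the KO points of Themis stand at 153 and 414 CPM.

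The start regions of the 9 genes were read from RefSeq (GRCm38.p6) as windows from 250 bases before to 50 bases after each annotated start. The 9 genes have 15 such windows, of which the 2 of Themis overlap. The letters CTTTGA, the core recognised by TCF and LEF factors, were searched on both strands. They occurred in 5 of the 15 windows, those of 5 genes, and in 16.0% of all 32851 windows of the table. The RUNX core TGTGGT occurred in 4 windows (16.8% of all) and the E-box letters CAGCTG or CAGGTG in 7 (32.9% of all). The windows shown are those of 3 genes that rose (Zap70, Fyn and Txk) and of Syk, which fell, with the core, or in Txk its reverse complement TCAAAG, in capitals. They run 5′ to 3′ on the strand of the gene.
Zap70, chr1:36761548-36761847, plus strand: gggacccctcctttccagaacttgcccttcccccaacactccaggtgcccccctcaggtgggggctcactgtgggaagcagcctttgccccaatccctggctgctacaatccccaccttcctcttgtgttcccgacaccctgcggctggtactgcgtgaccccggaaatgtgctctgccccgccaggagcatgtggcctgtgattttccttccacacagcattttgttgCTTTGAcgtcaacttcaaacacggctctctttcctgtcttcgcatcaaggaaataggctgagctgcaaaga
Fyn, chr10:39369549-39369848, plus strand: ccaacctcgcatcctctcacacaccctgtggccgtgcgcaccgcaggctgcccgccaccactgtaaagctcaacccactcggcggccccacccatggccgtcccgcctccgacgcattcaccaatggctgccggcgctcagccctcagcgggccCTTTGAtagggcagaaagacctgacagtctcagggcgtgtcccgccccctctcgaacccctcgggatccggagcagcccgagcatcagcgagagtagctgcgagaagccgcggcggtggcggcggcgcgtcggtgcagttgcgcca
Txk, chr5:72752728-72753027, minus strand: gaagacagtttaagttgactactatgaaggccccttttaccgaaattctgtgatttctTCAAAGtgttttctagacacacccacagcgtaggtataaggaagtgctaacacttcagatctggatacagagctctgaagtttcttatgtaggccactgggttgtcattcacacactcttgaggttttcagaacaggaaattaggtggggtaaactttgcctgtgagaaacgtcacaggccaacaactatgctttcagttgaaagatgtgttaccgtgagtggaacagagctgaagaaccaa
Syk, chr13:52596632-52596931, plus strand: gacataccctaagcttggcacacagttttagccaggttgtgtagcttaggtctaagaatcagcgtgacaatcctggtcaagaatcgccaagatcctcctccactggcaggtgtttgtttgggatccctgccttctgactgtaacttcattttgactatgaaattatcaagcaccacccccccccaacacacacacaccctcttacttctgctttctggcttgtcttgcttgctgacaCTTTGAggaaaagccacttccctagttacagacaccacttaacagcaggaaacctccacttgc
The window of Lcp2, which did not pass the test, also held 1 match. The windows of Lck, Lat, Prkcq and Themis held none, nor did the other windows of Zap70, Syk and Txk. Matches thus occurred in genes that rose, a gene that fell and a gene that was not called. A match in these windows describes letters and not a bound site.

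Lck, on chromosome 4 (129548344 to 129573641), encodes the main Src family kinase of T cells and was the most abundant of the 9. It stood at 1494 and 1451 CPM in KO 1 and KO 2, against 1757, 1745, 1683 and 1765 CPM in WT 1 to 4. Both KO values lay below every WT value, by little. Lck fell by 0.25 on the log2 scale (SE 0.0591, edgeR adjusted p = 0.0304). The call was lost without WT 1, WT 2 or WT 3 (edgeR adjusted p = 0.134, 0.127 and 0.112) and with limma-voom weights per genotype (adjusted p = 0.279), while the size of the difference changed little. RefSeq gives Lck a distal and a proximal start, and counts per gene cannot tell their transcripts apart.

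Fyn (chromosome 10, 39369743 to 39565381), the other Src family kinase of thymocytes, changed in the opposite direction. It stood at 261 and 207 CPM in KO 1 and KO 2, against 90.4, 85.2, 87.9 and 97.5 CPM in WT 1 to 4. Both KO libraries were far above the WT range. The log2 fold change was 1.31 (SE 0.0731, edgeR adjusted p = 0.000442), a 2.48-fold rise. The annotated antisense genes Gm16364 and Gm16365 overlap Fyn, and the unstranded libraries do not tell their reads apart. The ratio of Lck to Fyn per kilobase was 9.21 and 11.3 in KO 1 and KO 2 and 31.2, 32.9, 30.8 and 29.1 in WT 1 to 4, so Lck was above Fyn in each library.

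Zap70 (chromosome 1, 36761798 to 36782821) encodes the kinase that docks on phosphorylated CD3 and ζ chains. It stood at 424 and 323 CPM in KO 1 and KO 2, against 75.4, 77.4, 76.6 and 73.7 CPM in WT 1 to 4. The WT libraries differed among themselves by a factor of 1.05 at most, and KO 1 was 1.31 times KO 2. Zap70 rose 4.79-fold (log2 2.26, SE 0.109, edgeR adjusted p = 0.000324), and its rise was at the 96.3rd percentile of log2 fold changes over all genes tested. It was called in each of 15 alternative analyses, with a log2 fold change of 2.08 to 2.51.

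Syk (chromosome 13, 52582610 to 52648792) encodes the second kinase of this family, which B cells, myeloid cells and early thymocytes use. It stood at 67.5 and 61.1 CPM in KO 1 and KO 2, against 99.9, 101, 97.4 and 103 CPM in WT 1 to 4. Both KO libraries were below all WT libraries. Syk fell by 0.67 on the log2 scale (SE 0.0707, edgeR adjusted p = 0.00272), to 0.64 of the WT mean. In KO 2 the B-cell genes Ms4a1 and Pax5 stood at 36.1 and 7.54 CPM, and both were at 0 in KO 1 and in all WT libraries. The part of B-lineage cells in the Syk values was not tested.

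The balance between the kinases was compared as the ratio of Syk to Zap70 within each library, per kilobase of gene length, which no scaling of libraries can alter. The ratio was 0.0658 in KO 1 and 0.0782 in KO 2, against 0.548, 0.54, 0.526 and 0.58 in WT 1 to 4. The KO and WT values were widely separated. The mean log2 ratio was -3.80 ± 0.177 in KO (SD, n = 2) and -0.87 ± 0.0596 in WT (SD, n = 4), a difference of -2.93 or 7.64-fold. An exact permutation test over the 15 splits of 2 against 4 libraries gave p = 0.133, two-sided by doubling. A doubled p cannot be lower in this design, so this test could not have passed and says nothing of the ratio either way.

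In counts, Syk held 13.7% of Syk and Zap70 reads in KO 1 (Wilson 95% interval 13.0 to 14.4%) and 15.9% in KO 2 (14.9 to 16.9%). In WT 1 to 4 the share was 57.0% (55.9 to 58.1%), 56.6% (55.2 to 58.1%), 56.0% (54.5 to 57.4%) and 58.4% (57.0 to 59.7%). The intervals cover counting error only. Per kilobase, where the longer Syk transcript counts less, the share was 6.17 and 7.25% in KO 1 and KO 2, and 34.5 to 36.7% in WT. Zap70 was the larger of the pair in both genotypes on that scale. The sum of both kinases was also greater in KO, 207 and 160.0 CPM per kilobase in KO 1 and KO 2 against 53.4 to 54.7 in WT.

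**Figure D2:**
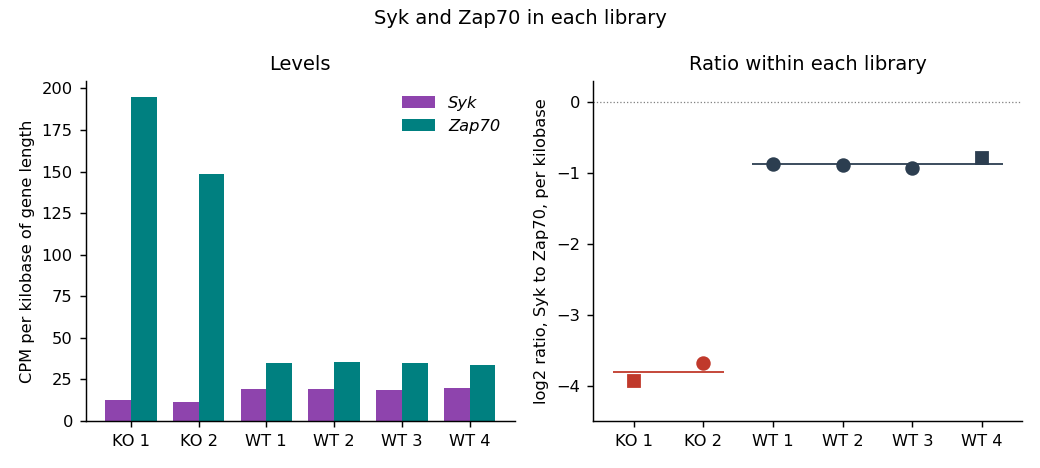
Left, CPM per kilobase of Syk and Zap70 in each library. Right, the log2 ratio of Syk to Zap70 per kilobase, with lines at the group means of -3.80 in KO and -0.87 in WT, squares for male and circles for female libraries. The Zap70 bars carry most of the difference, 195 and 148 CPM per kilobase in KO against 33.8 to 35.5 in WT.

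Txk (chromosome 5, 72695978 to 72752992) encodes a Tec family kinase of T cells, also called RLK. It stood at 39.6 and 38.1 CPM in KO 1 and KO 2, against 5.24, 7.14, 6.94 and 6.61 CPM in WT 1 to 4. The KO libraries agreed closely and were well above WT. It rose 5.96-fold, the largest change among the 9 (log2 2.57, SE 0.163, edgeR adjusted p = 0.000668).

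Prkcq (chromosome 2, 11171905 to 11301226) encodes protein kinase C theta, which links the receptor to NF-κB. It stood at 259 and 350.5 CPM in KO 1 and KO 2, against 106, 104, 107 and 123 CPM in WT 1 to 4. Both KO libraries were above WT, KO 2 more so. Prkcq rose 2.78-fold (log2 1.48, SE 0.144, edgeR adjusted p = 0.00223), with a log2 fold change of 1.06 without KO 2 and 1.75 without KO 1.

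The adaptor genes differed less, or not alike, in the 2 KO libraries. Lat (chromosome 7, 126363827 to 126369705), the membrane scaffold, stood at 694 and 529 CPM in KO 1 and KO 2, against 560, 566, 534 and 619 CPM in WT 1 to 4. KO 1 was above the WT range and KO 2 just below it. The log2 fold change was 0.03 (SE 0.0791, edgeR adjusted p = 0.815). It was 0.15 without KO 2 (edgeR adjusted p = 0.012) and -0.05 without KO 1, so its sign rested on which KO library was used.

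Lcp2 (chromosome 11, 34046928 to 34092281), the gene of SLP-76, stood at 229 and 298 CPM in KO 1 and KO 2, against 219, 216, 211 and 221 CPM in WT 1 to 4. KO 1 lay just above the WT libraries and KO 2 clearly above them. The log2 fold change of 0.31 (SE 0.106) did not pass (edgeR adjusted p = 0.0835). It was 0.49 without KO 1 (edgeR adjusted p = 1.68e-11) and 0.04 without KO 2 (edgeR adjusted p = 0.573), fits in which the single KO library is assumed to vary like the WT libraries. Without WT 4 it was 0.47 (edgeR adjusted p = 7.78e-11). Part of the locus is overlapped by a protein-coding gene on the other strand, 4930469K13Rik, whose reads cannot be told apart from those of Lcp2 there.

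Themis (chromosome 10, 28668360 to 28883820) differed most between the KO libraries. It stood at 153 and 414 CPM in KO 1 and KO 2, against 395, 399, 402 and 363 CPM in WT 1 to 4. KO 1 was far below the WT range and KO 2 slightly above it. The log2 fold change over all libraries was -0.43 (SE 0.281, edgeR adjusted p = 0.292). Without KO 2 it was -1.26 (edgeR adjusted p = 1.41e-21, KO 1 against WT 4 once sex is fitted) and without KO 1 it was 0.07 (edgeR adjusted p = 0.127), close to the 0.06 without WT 4. In the same libraries the double-positive marker Cd8a stood at 66.9 CPM in KO 1, 858 CPM in KO 2 and 0.703 to 3.72 CPM in WT. The sort had excluded cells with CD8 staining. Cd4, of the same list, stood at 0 and 12.8 CPM in KO 1 and KO 2 and 0.738 to 2.61 CPM in WT, and was not called. Of the 10 double-positive markers 4 rose and 4 fell. The part of double-positive cells in the values of Themis was not tested.

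**Figure D3:**
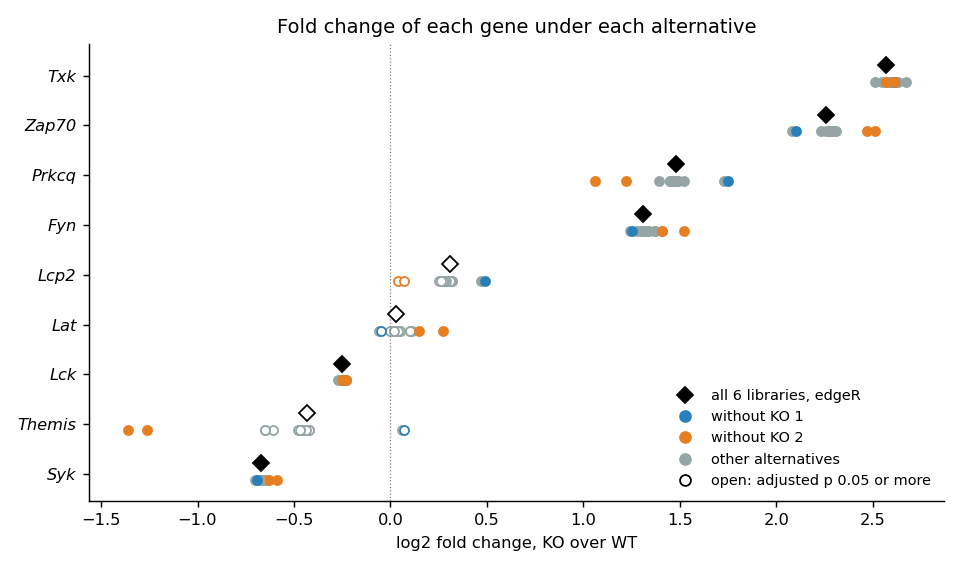
Log2 fold change of KO over WT (x axis) for each of the 9 genes with all libraries (diamonds) and under each of 15 alternatives (circles), filled where the adjusted p was under 0.05. Blue circles are fits without KO 1, orange circles fits without KO 2 and grey circles the others. The circles of Txk, Zap70, Prkcq and Fyn are all filled, and those of Themis run from -1.36 to 0.07.

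Levels of different genes were ordered by CPM per kilobase. In WT the order was Lck (756 ± 16.1, SD, n = 4), Lat (461 ± 29), Themis (97.9 ± 4.6), Lcp2 (64.7 ± 1.33), Zap70 (34.8 ± 0.73), Prkcq (33.2 ± 2.62), Fyn (24.4 ± 1.43), Syk (19.1 ± 0.475) and Txk (2.77 ± 0.366). Zap70 and Prkcq overlapped, and no other neighbours did. In KO the order was Lck (641), Lat (495), Zap70 (171), Prkcq (92.0), Lcp2 (78.7), Themis (71.3), Fyn (63.4), Txk (16.6) and Syk (12.2), each a mean of 2 libraries. There Prkcq overlapped Lcp2, Lcp2 overlapped Themis and Themis overlapped Fyn. Zap70 stood in the third place in KO, against the fifth in WT, and Syk in the last place in KO, behind Txk.

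The relatives of these kinases that reached 1 CPM in a group were set beside them. Blk, a Src family kinase of B cells and some γδ T cells, stood at 268 and 75.4 CPM in KO 1 and KO 2, against 19.2 to 21.6 CPM in WT. It rose 2.66 on the log2 scale (SE 0.413, edgeR adjusted p = 0.00921), 1.90 without KO 1, 1.88 without WT 4 and 3.70 without KO 2. Blk is also on the γδ list, whose members went both ways. Sox13 of that list stood at 264 and 150.2 CPM in KO 1 and KO 2 and at 78.2 to 93.5 CPM in WT, and Cd163l1 rose too. Of the receptor genes of the list, Trgc1 alone was called lower. Trdc, Trgc2 and Trgc4 also lay below every WT library in both KO libraries, Trdc and Trgc4 only just so in KO 2. The part of B-lineage or γδ T cells in the Blk values was not tested. Per kilobase, Blk held 13.0 and 4.19% of Src family transcripts in KO 1 and KO 2 and 0.972 to 1.09% in WT, while Lck held 78.0 and 86.8% in KO and 94.8 to 95.2% in WT.

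Lyn, a Src family kinase of B and myeloid cells, had no count in KO 1, 5.45 CPM in KO 2 and 10.5 to 12.6 CPM in WT. Both KO values lay below WT, but the test did not pass (log2 -2.34, SE 1.16, edgeR adjusted p = 0.184). Without KO 1 or WT 4, which both leave KO 2 alone to set the difference once sex is fitted, it passed (edgeR adjusted p = 1.87e-05 and 2.05e-05), and without KO 2 as well (4.92e-17). The log2 fold change was -1.06 without KO 1 and -1.07 without WT 4. Without KO 2 it rests on the count of 0 in KO 1 and has no defined size. Fgr (13.4 and 23.4 CPM in KO; 11.8 to 14.2 in WT) and Src (0.972 and 1.49 CPM in KO; 0.169 to 0.690 in WT) did not pass with all libraries (edgeR adjusted p = 0.0646 and 0.125).

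In the Tec family, Tec (44.8 and 49.5 CPM in KO; 35.4 to 44.1 in WT) and Btk, a kinase of B and myeloid cells (0.819 and 3.96 CPM in KO; 1.98 to 3.55 in WT), did not pass with all libraries (edgeR adjusted p = 0.0548 and 0.871).

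**Figure D4:**
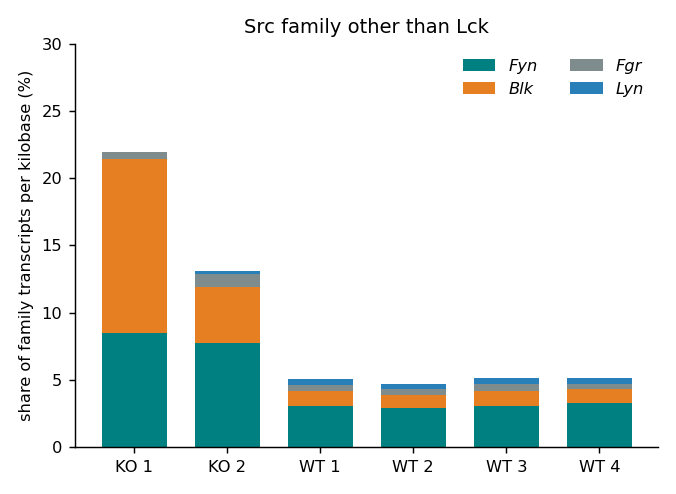
Share of Src family transcripts per kilobase (y axis, in percent) held by family members other than Lck in each library, KO libraries left of WT. Blk makes up 13.0% in KO 1 and 4.19% in KO 2, against 0.972 to 1.09% in WT.

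The rest of the pathway was read from lists of regulators, adaptors, downstream enzymes and receptor chains. With the relatives above they held 97 genes other than the 9, of which 95 were tested, 30 rose, 13 fell and 52 did not pass. Over all genes tested 14.1% were called higher and 16.5% lower, so the number that fell was near the background. Their median log2 fold change was 0.11, against -0.04 over all genes tested. With limma-voom weights per genotype 19 were higher and 8 lower, beside 11.3% of all genes tested called in either direction.

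Of 20 regulators of these kinases 7 rose and 3 fell, with a median of 0.13. Sla, the adaptor SLAP that turns down receptor levels, stood at 269 and 368 CPM in KO and 96.2 to 112 CPM in WT (log2 1.64, edgeR adjusted p = 0.000298). Inpp5d, the lipid phosphatase SHIP1 (log2 1.02), Dok2, an inhibitory adaptor (0.94), and Ptpn6, the phosphatase SHP-1 (0.84), rose too. Cblb, a ubiquitin ligase that restrains receptor signals, stood at 128 and 97.6 CPM in KO and 229 to 266 CPM in WT (log2 -1.19, edgeR adjusted p = 0.00076). Pag1, which anchors the inhibitory kinase CSK, fell by 0.73 and Lime1 by 0.30, the second with a call lost without WT 1, WT 2 or WT 3 (edgeR adjusted p = 0.118, 0.127 and 0.119). Negative regulators were therefore among those that rose and those that fell.

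Of 22 other adaptors 8 rose and 3 fell, with a median of -0.04. Sh2d1a, the adaptor SAP that brings FYN to SLAM receptors, stood at 194 and 207 CPM in KO and 76.3 to 80.2 CPM in WT (log2 1.35, edgeR adjusted p = 0.000319). Grap (log2 1.00) and Sh2d2a (0.67), both adaptors of T cells, also rose. Blnk, the B-cell counterpart of SLP-76, stood at 0.614 and 8.14 CPM in KO and 0.211 to 0.669 CPM in WT (log2 3.32, edgeR adjusted p = 0.0126), and its call was lost without KO 2, WT 1, WT 2 or WT 3 (edgeR adjusted p = 0.157, 0.0646, 0.0615 and 0.0613). Without KO 2 its log2 fold change was 1.51, and without KO 1 it was 4.04. Skap2, Shb and Vav3 fell by 3.84, 1.40 and 0.60 on the log2 scale, calls that were each lost without WT 1, WT 2 or WT 3 (edgeR adjusted p = 0.0984, 0.0931 and 0.0905 for Skap2, 0.0559, 0.052 and 0.0537 for Shb and 0.126, 0.123 and 0.107 for Vav3). Skap2 had 1 count in KO 1 and 31 in KO 2, against 14.5 to 16.3 CPM in WT, and its log2 fold change was -2.67 without KO 1, -2.69 without WT 4 and -8.21 without KO 2.

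Of 37 downstream enzymes and factors other than Prkcq, 10 rose and 5 fell, with a median of 0.07. Rasgrp1, which activates Ras in thymocytes, stood at 544 and 527 CPM in KO and 177 to 197 CPM in WT (log2 1.53, edgeR adjusted p = 0.000319). Dgka, which removes the diacylglycerol that RASGRP1 and protein kinase C theta need, rose 1.46 and the calcineurin subunit gene Ppp3ca 1.44 (0.77 without KO 2).

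Among the 5 that fell, Itpr1, an inositol trisphosphate receptor, fell by 0.89, Prkca, a conventional protein kinase C, by 0.87, and Pik3cd, a lipid kinase subunit, by 0.77, the last with a call lost without WT 1 (edgeR adjusted p = 0.0524). Pdk1, a mitochondrial kinase of pyruvate dehydrogenase, fell by 0.97, with a call lost without WT 1, WT 2 or WT 3 (edgeR adjusted p = 0.0643, 0.0566 and 0.057). Plcg1, the phospholipase that LAT and SLP-76 bring in, did not pass.

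Of 8 receptor chain genes, 3 rose and 2 fell, with a median of 0.25. Trac, the α chain constant region, stood at 69.5 and 394 CPM in KO and 1.90 to 3.07 CPM in WT (log2 6.60, edgeR adjusted p = 0.000675), with a log2 fold change of 7.24 without KO 1, 7.22 without WT 4 and 5.18 without KO 2. Trbc2 and Cd247, the ζ chain on which ZAP-70 docks, rose 1.18 and 0.49 on the log2 scale. The difference of Cd247 was 0.15 without KO 2 and 0.71 without KO 1, and its call was lost without WT 1, WT 2 or WT 3 (edgeR adjusted p = 0.119, 0.12 and 0.114). Ptcra and Cd3g fell by 0.98 and 0.74. The β constant region Trbc2 has a similar copy in the genome, and its counts are less certain.

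**Figure D5:**
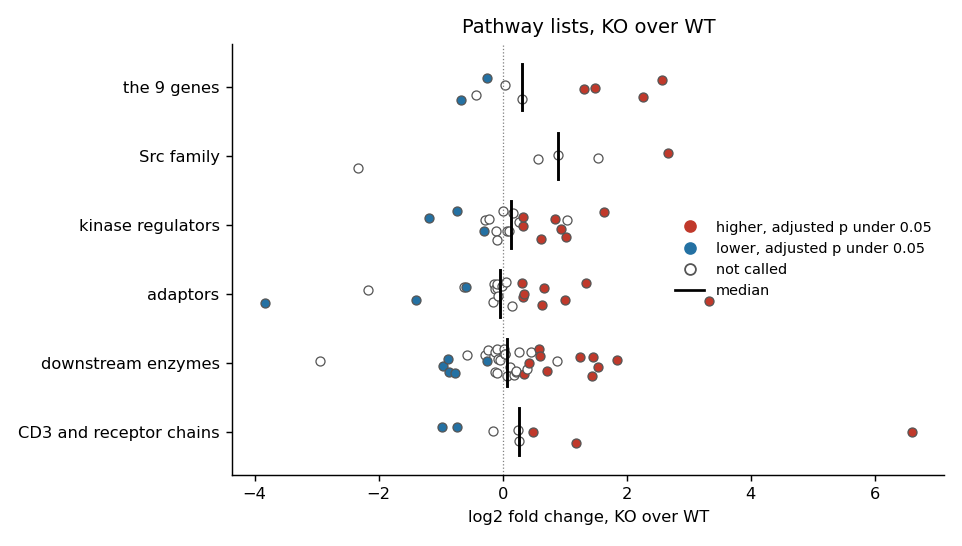
Log2 fold change of KO over WT for the 9 genes and for lists without them (rows), with the fold change on the x axis, red where called higher, blue where called lower and open where not called, with the median as a line. Medians of the lists lie between -0.04 and 0.89, and each list with 20 or more genes holds genes called in both directions.

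The genes most like the 2 largest rises and the 2 lowest fold changes were found by the root mean square distance between profiles of log2 CPM centred over the 6 libraries, among 11678 other protein-coding genes. Nearest to Zap70 were Pgk1, a glycolytic enzyme (distance 0.0285), Flna, an actin cross-linker (0.0354), and Sh2d3c (0.0698). Flna stood at 1139 and 844 CPM in KO and 195 to 212 CPM in WT. Nearest to Txk were Col16a1 (0.0935), which had a single count in each WT library, Nfil3, a transcription factor (0.128), and Rgs10 (0.139). Nearest to Syk were St7 (0.0365), Prmt3 (0.0389) and Slc35b2 (0.0392), each lower in both KO libraries than in any WT library. Among the nearest to Themis were Prickle1 (0.0653) and Grk5 (0.0653). Prickle1 stood at 14.0 CPM in KO 1 and 36.4 CPM in KO 2, against 29.9 to 35.2 CPM in WT. All these genes were chosen for their profiles, so the pattern each shares with its gene follows from the choice.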

How the data were processed

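Low-input cDNA libraries (SMART-Seq v4, which does not mark strand) had been read as paired ends on a NextSeq, per the labels' protocols. The authors deposited raw read counts for each Entrez gene and library, made with featureCounts on mm10, per the submitters' processing notes. The sources used here name no aligner, version or strand setting. Single-library tables repeat the counts of the combined one. The deposited gene length gave values per kilobase. RefSeq (GRCm38.p6) gave symbols for 25275 of the 26332 genes.

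KO was compared with WT by the robust quasi-likelihood F-test of edgeR 4.0.16 in R 4.3.3, after filterByExpr (count minimum 10) and TMM scaling, with sex as a further term (3 residual degrees of freedom). A call is a Benjamini-Hochberg adjusted p below 0.05 over the 13294 genes tested. The SE is the log2 fold change divided by the square root of F. The Syk to Zap70 ratio used a prior of 0.5 counts and profiles a prior of 2 counts. DESeq2 1.42.0, limma-voom (limma 3.58.1) with weights per genotype, other scalings and leaving out libraries served as alternatives. 3 counts are 0.154 and 0.224 CPM in KO 1 and KO 2 and 0.0724 to 0.125 CPM in WT.

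The 9 genes, the lists and the tests were chosen with earlier results of these data known. By rule, the text names the 9 genes, their kinase relatives from 1 CPM, up to 4 called genes per list and direction, and the 3 nearest profiles of 4 of the genes. Plcg1, marker genes and values in the closing section were picked by hand. A few genes selected in this way are left out of the text.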

Additional observations from a re-analysis of the deposited data

Results flagged for a closer look

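Prkcq was flagged within WT, because WT 4 stood at 123 CPM and the other WT libraries at 104 to 107 CPM. The gap was 0.851 of the WT range. 10 sets of WT values were examined in this way, and chance flags about 1 in 20. WT 4 was also the only male WT library, so the gap cannot be told apart from a difference of sex.

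For 6 of the 9 genes the KO effect differed between male and female libraries by an interaction term in edgeR, and 54.7% of all genes tested did so. Each sex has 1 KO library, so sex cannot be told apart from any other difference between KO 1 and KO 2, and the fit has 2 residual degrees of freedom, all from WT females. The interaction (male minus female log2 effect) was -1.30 for Themis (edgeR adjusted p = 3.31e-17), with KO over WT at 0.422 in males and 1.04 in females. It was -0.65 for Prkcq (2.84e-09; 2.11 in males and 3.32 in females), -0.42 for Lcp2 (8.76e-06; 1.03 and 1.39), 0.44 for Zap70 (6.76e-06; 5.76 and 4.23), 0.23 for Lat (0.00543; 1.12 and 0.957) and 0.18 for Fyn (0.0419; 2.67 and 2.36). Txk, Syk and Lck did not pass.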

How the results depend on the processing

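Fyn, Zap70, Txk and Prkcq were called higher in all 15 alternatives. Syk was called lower in 13, not with the replicate block (log2 -0.64, edgeR adjusted p = 0.164) nor with limma-voom weights without sex (adjusted p = 0.0657), the second chosen after seeing the data. Lck was called in 9. The counts of the 9 called lower, of other pathway genes called and of all genes called were 2, 43 and 4076. They were 1, 27 and 1500 with limma-voom weights per genotype, and 0, 24 and 1120 with these weights without sex, where 2 of the 9 were lower at an unadjusted p under 0.05. Leaving out 1 library gave 1 to 3, 23 to 79 and 1665 to 9473, and leaving out KO 2 without the sex term gave 3, 70 and 8918. With the replicate block on the numbers 1 and 2, without sex, edgeR gave 0 (1 at an unadjusted p under 0.05, and 2 with DESeq2 on all libraries), 10 and 717. Deviations of same-numbered libraries from their group means correlated at -0.148 and 0.029. With 2 KO libraries the deviations of KO 1 and KO 2 mirror each other, so these correlations cannot decide whether same-numbered libraries were paired. The Syk to Zap70 log2 difference of -2.93 was -3.06 to -2.81 without 1 library, -2.78 in females alone and -2.92 with the replicate block. The log2 fold change of Lat, 0.03, was -0.05 without KO 1 and -0.06 without WT 4 (-0.06 to 0.15 over such refits). That of Themis, -0.43, was 0.07 and 0.06 there (-1.26 to 0.07). Leaving out WT 4 gives nearly the values without KO 1, because both leave the difference to KO 2 once sex is fitted. With 2 KO libraries the spread in KO is poorly known, and leaving out a KO library assumes that the other varies like WT.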

Other observations

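Other DN3 genes were also low in KO 1 alone. The recombinase genes Rag1 and Rag2, chosen after their values were seen, stood at 521 and 32.7 CPM in KO 1 and at 1953 and 114 CPM in KO 2, against 1476 to 1925 and 90.8 to 103 CPM in WT. Neither passed the edgeR test (adjusted p = 0.333 and 0.401). Dntt, the terminal transferase gene, was low in both KO libraries (966 and 1547 CPM, against 2776 to 2926 CPM in WT; edgeR adjusted p = 0.00652). Of the 12 DN3 markers 6 fell and 1, the Notch target Dtx1, rose.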
